A study of Homo sapiens with 12 samples.

Results

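The response to low oxygen is described here for LN229, a long-established cell line from a human glioblastoma, in cells in which HIF2A, the transcription factor encoded by EPAS1, had been targeted with siRNA. It was taken from 6 of the 12 arrays of the study, the 3 hypoxic arrays with HIF2A siRNA and the 3 normoxic arrays with a control siRNA, chosen by the group named in their titles. The remaining 6 arrays, hypoxic cells with control siRNA and hypoxic cells with HIF1A siRNA, were used to test where this response differed from the other hypoxic groups. Hypoxia was 1% oxygen and normoxia was 20% oxygen. Every group carried an siRNA, delivered 24 h after seeding; the change of oxygen came 48 h after transfection and lasted 16 h. No array of HIF2A siRNA in normoxia was analysed here, so in this comparison low oxygen and HIF2A siRNA cannot be told apart. The labels do not state whether the replicates were separate cultures, and p-values therefore reflect spread between samples that may be technical.

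Cells sense oxygen through hydroxylases of the EGLN family, which mark the HIF alpha subunits for recognition by VHL and destruction. At low oxygen HIF1A and HIF2A escape this, pair with ARNT and bind short DNA elements with the core ACGTG or GCGTG near their targets. In many cells HIF1A is known for the glycolytic genes, and HIF2A for genes such as EPO or TGFA; in glioblastoma HIF2A has been studied for its part in stem-like cells.

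EPAS1 was the gene targeted in the hypoxic arrays with HIF2A siRNA. Its level, on the deposited scale taken as log2, was 8.55, 8.42 and 8.59 in normoxia and 7.18, 6.99 and 7.19 in hypoxia with HIF2A siRNA. All 3 arrays with HIF2A siRNA lay below all 3 normoxic arrays. The means were 8.52 ± 0.09 (SD, n = 3) and 7.12 ± 0.11 (SD, n = 3), a change of -1.40 on the log2 scale (SE 0.15, 2.64-fold, limma adjusted p = 2.7e-04). In hypoxia with control siRNA the EPAS1 values were 9.74, 9.57 and 9.83, above every normoxic array. Against these, the level with HIF2A siRNA was different by -2.59 (95% interval -2.92 to -2.27, adjusted p = 3.1e-05). EPAS1 was the 1 gene called lower in that contrast, 0.00703% of the genes tested, and the share called higher was 0%. The hypoxic arrays with HIF1A siRNA gave 8.60, 8.08 and 8.02, between the control and the HIF2A siRNA arrays.

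HIF1A, the other oxygen-regulated alpha subunit, stood at 11.59, 11.48 and 11.50 in normoxia and at 11.31, 11.01 and 11.45 with HIF2A siRNA in hypoxia. Each HIF2A siRNA array lay below each normoxic one, but the difference of -0.27 (SE 0.27) did not pass the test (adjusted p = 0.642). With HIF1A siRNA the values were 8.20, 9.06 and 7.74, well below the other groups. Of the 10 measured members of the HIF system (alpha subunits, ARNT partners, hydroxylases, VHL and CITED2), EPAS1 alone was called, and the other 9 differed from normoxia by between -0.27 and 0.29. HIF3A, the third alpha subunit, differed by -0.04. The partners ARNT and ARNT2 differed by -0.13 and 0.19. The prolyl hydroxylases EGLN2 and EGLN3 differed by -0.21 and 0.20, and HIF1AN, which hydroxylates an asparagine of the alpha subunits, by 0.20. VHL, the recognition subunit, differed by -0.17, and CITED2, which competes with HIF for a coactivator, by 0.29. None of these 8 had an adjusted p under 0.05. The small differences of HIF3A and ARNT changed sign under other settings: HIF3A stood at 0.056 without replicate 3 of the HIF2A siRNA arrays, and ARNT at 0.023 and 0.036 after quantile and cyclic loess normalization.

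**Figure D1:**
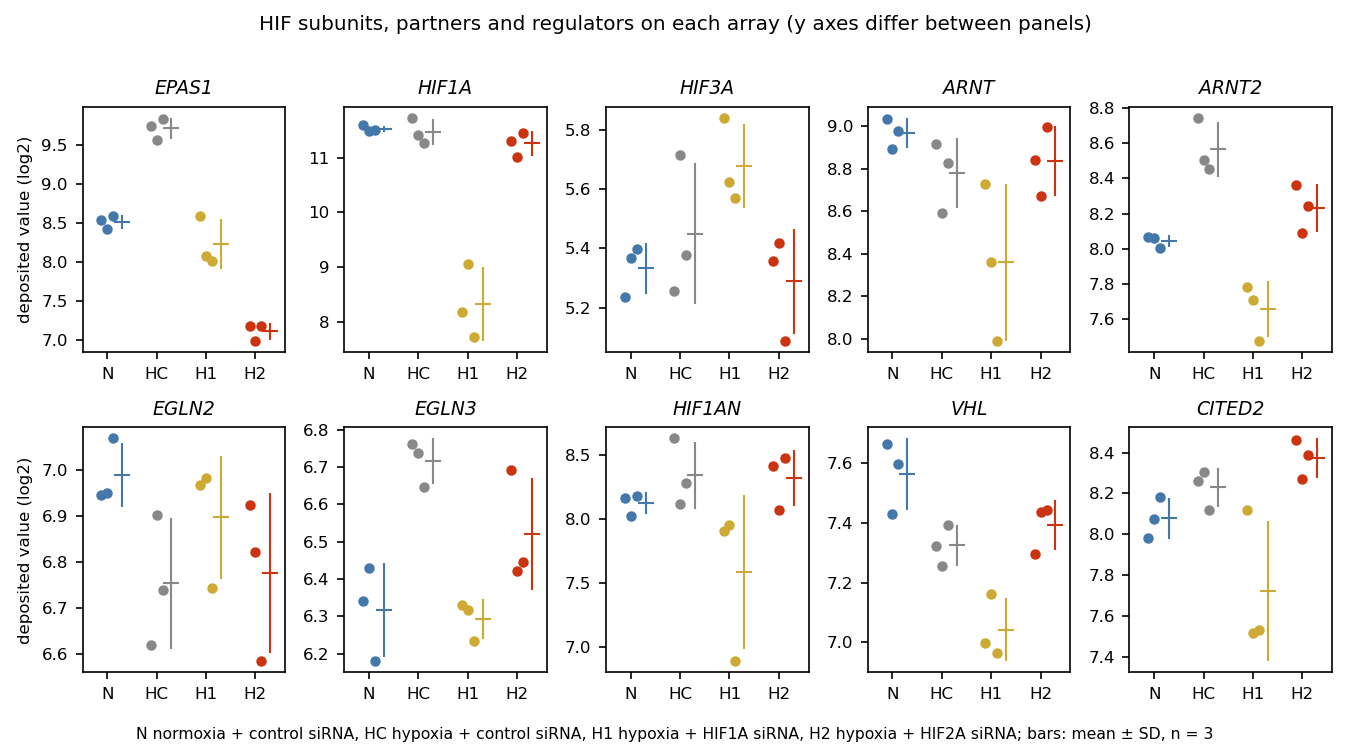
Deposited log2 value of the 10 measured HIF system genes on each array, in 4 groups of 3 (points) with mean ± SD beside them; the y axes differ between panels. EPAS1 lies lowest in hypoxia with HIF2A siRNA, at 7.12 ± 0.11 (SD, n = 3), and HIF1A lies lowest in hypoxia with HIF1A siRNA.

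Over 14232 genes, 405 were called higher in hypoxia with HIF2A siRNA than in normoxia (2.85%) and 967 lower (6.79%), each at a limma adjusted p under 0.05. Changes of at least 2-fold were more often rises, with 110 rises and 78 falls, and changes of at least 1.5-fold were more often falls, with 273 rises and 593 falls. The 3 values of one group lay entirely above or below those of the other for 5219 genes, or 36.7%. Lack of overlap, given below for single genes, was thus common and held for many uncalled genes, HIF1A among them. The median change of all genes was -0.05. Arrays of one group correlated at r between 0.983 and 0.994 over probe sets, and array medians lay between 6.49 and 6.82. Rises made up 29.52% of calls on the deposited values, 45.96% after quantile normalization (768 and 903 genes), 46.47% after cyclic loess (855 and 985) and 33.6% with each array centred on its median (596 and 1178). Leaving out 1 array left 241 rises without HIF2A siRNA replicate 1, 241 without normoxia replicate 1, 253 without normoxia replicate 2 and 242 without normoxia replicate 3. The falls fell to 551 and 364 without HIF2A siRNA replicates 1 and 2, and to 347, 522 and 368 without normoxia replicates 1, 2 and 3.

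The 10 largest rises spanned genes of varied kinds, 2 of them glycolytic enzymes. BEND5, which encodes a BEN domain protein, went from 6.06, 5.74 and 5.89 in normoxia to 10.16, 9.38 and 10.19 with HIF2A siRNA in hypoxia. This was the largest rise of all, 4.02 on the log2 scale (SE 0.21, 16.2-fold, adjusted p = 2.2e-06), and replicate 2 was the lowest of the hypoxic arrays. ALDOC, the aldolase isoform typical of brain, had 7.29, 7.12 and 7.06 in normoxia and 10.78, 10.59 and 10.52 in hypoxia. The 3 arrays of each group lay close together, and the rise was 3.47 (SE 0.15, 11.1-fold, adjusted p = 8.8e-07). NRN1, the neurite growth factor neuritin, had 6.28, 6.14 and 6.23 in normoxia and 9.79, 9.39 and 9.70 in hypoxia. TMEM45A, a transmembrane protein of largely open function, had 8.07, 7.66 and 7.65 and 11.05, 10.80 and 11.26. Both were far apart between groups, with rises of 3.41 (SE 0.21) and 3.24 (SE 0.25).

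STC1, a secreted glycoprotein hormone, stood at 7.93, 7.76 and 7.86 in normoxia and 10.91, 10.78 and 11.01 in hypoxia with HIF2A siRNA. NDRG1, a stress-responsive gene long used as a marker of hypoxia, stood at 9.28, 9.19 and 9.28 and 12.24, 12.03 and 12.08. ANGPTL4, a secreted inhibitor of lipoprotein lipase, stood at 5.88, 6.09 and 5.85 and 8.99, 8.51 and 8.81. These 3 rose by 3.05, 2.87 and 2.83, with SE of 0.14, 0.11 and 0.16, and no array of one group reached the other. FAM162A, a mitochondrial protein linked to cell death in hypoxia, gave 7.53, 7.31 and 7.57 in normoxia and 10.33, 9.87 and 10.63 in hypoxia. ENO2, the neuronal enolase, gave 8.43, 8.41 and 8.53 and 11.27, 11.09 and 11.15. HILPDA, a lipid droplet protein that inhibits fat breakdown, gave 7.19, 7.02 and 7.18 and 9.93, 9.54 and 10.01. Their rises were 2.81 (SE 0.24), 2.71 (SE 0.12) and 2.70 (SE 0.16). All 10 calls held when any 1 array of either group was left out.

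**Figure D2:**
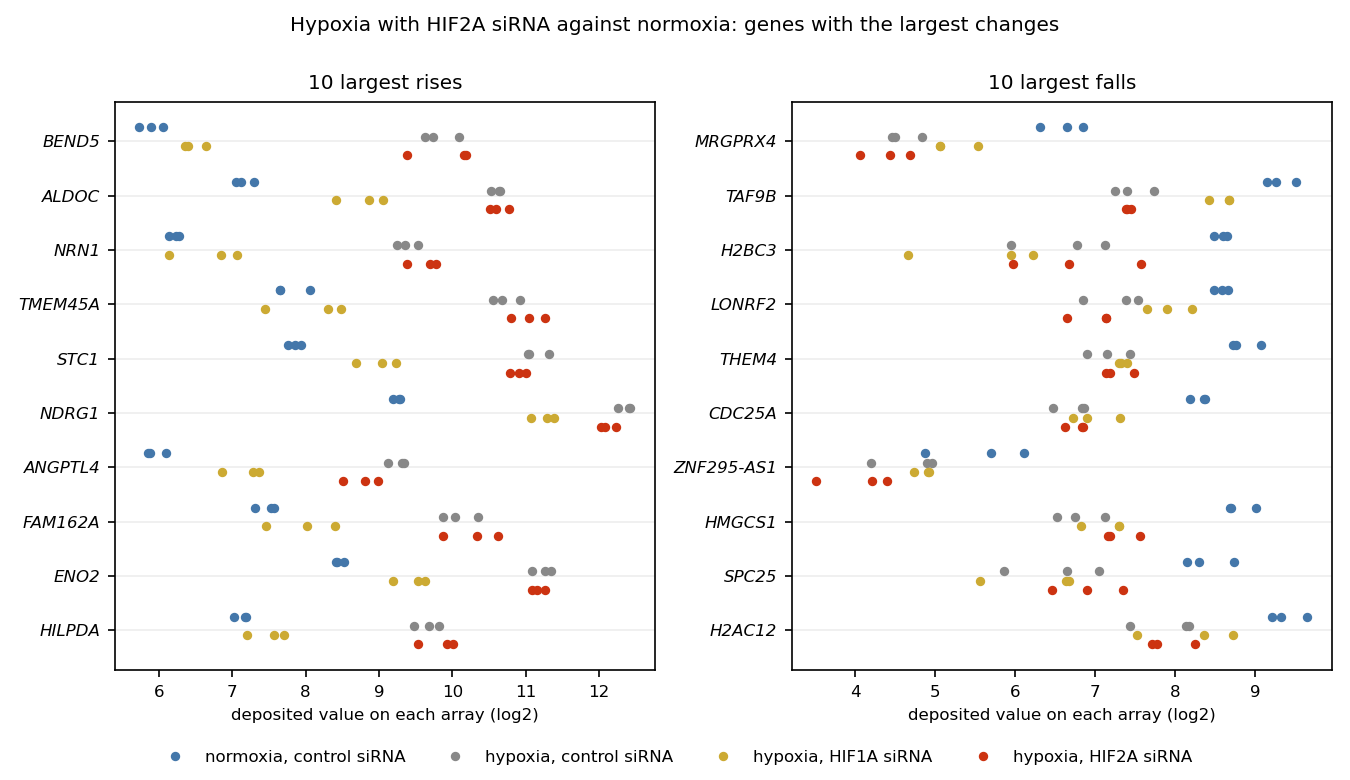
Deposited log2 values of the 10 genes with the largest called rises and the 10 with the largest called falls in hypoxia with HIF2A siRNA against normoxia, 1 point per array and 3 arrays per group. Between the red HIF2A siRNA points and the grey points of hypoxia with control siRNA no plotted gene differed with a call, though the red points of STC1, NDRG1 and ANGPTL4 all lie below and those of HMGCS1 all above the grey ones, and the yellow HIF1A siRNA points of the 10 rises lie below the red ones.

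RefSeq promoter windows (GRCh38.p14, 250 bases before to 50 bases after the gene's start) were searched for the HIF core in its form ACGTG on both strands, so the letters CACGT count as well; a palindromic CACGTG, the E-box of other factors, holds both. Of 27305 promoters, 21.6% hold a match. A match was present in 23.9% of the 11386 measured genes found in the table, in 35.4% of 339 called higher, in 25.7% of 836 called lower and in 23.4% of 10211 not called. Among the 10 largest rises, 7 had an entry and 4 held a match, ALDOC, ANGPTL4, FAM162A and ENO2, while BEND5, NRN1 and TMEM45A held none in this window. STC1, NDRG1 and HILPDA had no entry. Among the 10 largest falls, 9 had an entry and TAF9B held a match. The windows of the 4 matching rises, of BEND5 as the largest rise and of EPAS1 as the siRNA target are shown 5′ to 3′ on the gene's strand, with matches in capitals. They lie at chr1:48776842-48777141 (minus strand) for BEND5, chr17:28576846-28577145 (minus strand) for ALDOC, chr19:8363905-8364204 (plus strand) for ANGPTL4, chr3:122383932-122384231 (plus strand) for FAM162A, chr12:6914330-6914629 (plus strand) for ENO2 and chr2:46297157-46297456 (plus strand) for EPAS1.
BEND5: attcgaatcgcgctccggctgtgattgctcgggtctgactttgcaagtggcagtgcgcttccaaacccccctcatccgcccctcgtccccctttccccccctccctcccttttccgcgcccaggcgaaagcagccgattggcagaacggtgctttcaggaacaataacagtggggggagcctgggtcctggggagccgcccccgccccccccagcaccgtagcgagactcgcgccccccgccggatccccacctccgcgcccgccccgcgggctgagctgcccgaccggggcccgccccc
ALDOC: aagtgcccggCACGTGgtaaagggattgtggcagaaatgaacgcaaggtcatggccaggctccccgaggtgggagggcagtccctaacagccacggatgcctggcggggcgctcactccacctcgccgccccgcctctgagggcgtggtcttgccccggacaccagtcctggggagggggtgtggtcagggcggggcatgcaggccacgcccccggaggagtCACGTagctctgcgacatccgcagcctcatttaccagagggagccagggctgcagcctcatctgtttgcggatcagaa
ANGPTL4: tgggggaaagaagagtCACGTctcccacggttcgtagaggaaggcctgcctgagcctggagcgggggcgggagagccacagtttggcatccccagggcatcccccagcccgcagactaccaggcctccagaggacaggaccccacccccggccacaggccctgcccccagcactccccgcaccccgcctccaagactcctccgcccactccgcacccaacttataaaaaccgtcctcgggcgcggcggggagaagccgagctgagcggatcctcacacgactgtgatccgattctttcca
FAM162A: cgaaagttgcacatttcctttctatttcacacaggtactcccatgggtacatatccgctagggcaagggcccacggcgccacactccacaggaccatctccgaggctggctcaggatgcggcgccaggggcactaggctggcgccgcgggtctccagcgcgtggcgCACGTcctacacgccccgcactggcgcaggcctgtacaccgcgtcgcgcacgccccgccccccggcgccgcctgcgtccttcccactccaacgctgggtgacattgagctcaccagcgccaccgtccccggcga
ENO2: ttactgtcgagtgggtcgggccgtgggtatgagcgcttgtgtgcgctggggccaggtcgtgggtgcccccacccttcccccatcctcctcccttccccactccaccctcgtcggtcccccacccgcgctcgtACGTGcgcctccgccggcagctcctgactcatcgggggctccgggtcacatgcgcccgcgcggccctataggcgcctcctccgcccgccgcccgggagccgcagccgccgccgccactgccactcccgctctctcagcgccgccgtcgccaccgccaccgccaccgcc
EPAS1: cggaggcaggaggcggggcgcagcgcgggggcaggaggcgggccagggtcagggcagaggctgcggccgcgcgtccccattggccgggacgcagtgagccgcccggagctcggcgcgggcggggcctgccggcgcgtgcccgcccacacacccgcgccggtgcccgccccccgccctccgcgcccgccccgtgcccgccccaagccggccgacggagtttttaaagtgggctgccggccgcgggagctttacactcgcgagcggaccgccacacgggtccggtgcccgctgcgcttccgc
The ALDOC window holds a CACGTG and a separate CACGT, and the other 3 matching windows hold 1 match each. The other form, GCGTG, is not in capitals here. It was searched on both strands, where it reads CACGC on the opposite one, after the first results were seen and is held by 36.3% of all promoters, 45.2% of measured genes, 51.0% of those called higher, 54.9% of those called lower and 44.3% of those not called. The ALDOC window holds 2 of these strings, the FAM162A window 3, the EPAS1 window 1 and the BEND5, ANGPTL4 and ENO2 windows 0. A match is a string of letters and does not show that a factor binds there.

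Genes of glucose use rose broadly. Of 15 measured genes of glucose uptake, glycolysis and lactate handling, 10 were called higher and 1 lower, with a median change of 1.08 against -0.05 over all genes. After ALDOC and ENO2, the largest called rise was that of HK2, the inducible hexokinase, from 8.15, 8.07 and 8.10 to 10.19, 10.06 and 10.04, a change of 1.99 (SE 0.10). GPI, the next enzyme of the pathway, went from 11.14, 11.15 and 11.20 to 12.46, 12.29 and 12.40, a rise of 1.22 (SE 0.11). Neither gene's groups overlapped. The 4 members that did not pass differed by between 0.12 and 0.45. The 1 called fall was PFKM, the muscle-type phosphofructokinase, named after its values were seen, at -0.41 (adjusted p = 0.0288), which was lost without any 1 of the 6 arrays and after quantile or cyclic loess normalization.

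Of 7 measured regulators of glycolytic flux and pyruvate oxidation, 3 were called higher and none lower, with a median of 0.07. PDK1, the kinase that holds pyruvate out of the mitochondrial cycle, had 8.79, 8.58 and 8.62 in normoxia and 10.88, 10.76 and 11.09 in hypoxia, a rise of 2.25 (SE 0.16). PFKFB4, which sets the level of a phosphofructokinase activator, had 8.0, 7.98 and 8.12 and 10.21, 9.94 and 10.19, a rise of 2.08 (SE 0.14). PDK3, a second kinase of this family, rose by 1.24 (SE 0.22). The 4 others differed by between -0.41 and 0.07.

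Glycogen genes also rose, 6 of 9 being called higher and 1 lower, with a median of 0.71. PPP1R3C, a subunit that brings a phosphatase to glycogen, went from 7.75, 7.37 and 7.59 to 9.90, 9.69 and 9.79. GYS1, glycogen synthase, went from 7.78, 7.76 and 7.76 to 9.77, 9.57 and 9.60. The groups were far apart in both, with rises of 2.22 (SE 0.17) and 1.88 (SE 0.12). GBE1, the branching enzyme, rose by 1.30 (SE 0.13), and PPP1R3B, another targeting subunit, by 1.26 (SE 0.11). The fall was that of GYG1, the primer of glycogen, named after its values were seen, at -0.96 (SE 0.19). Of 3 measured genes of acid and bicarbonate handling, the carbonic anhydrase CA12 was called, at 0.50 (SE 0.11), and the call was lost without HIF2A siRNA replicate 1 or normoxia replicate 2 or 3.

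Among 18 measured angiogenic and secreted factors and their receptors, 9 were called higher and none lower, with a median of 0.40. VEGFA, the main angiogenic growth factor, had 7.87, 7.69 and 7.80 in normoxia and 9.99, 10.07 and 10.22 in hypoxia with HIF2A siRNA. The groups did not overlap, and the rise was 2.30 (SE 0.13, 4.93-fold, adjusted p = 2.8e-06). STC2, a relative of STC1, rose by 1.77 (SE 0.17). The 9 members that did not pass differed by between -0.34 and 0.27.

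Enzymes that modify and turn over the matrix gave 6 called rises of 13 measured, with no called fall and a median of 0.11. The collagen prolyl hydroxylases led. P4HA1 went from 10.16, 10.00 and 10.01 to 12.14, 11.82 and 12.14, a rise of 1.98 (SE 0.19), and P4HA2 from 10.60, 10.49 and 10.48 to 12.12, 12.05 and 12.22, a rise of 1.61 (SE 0.12). The lysyl hydroxylase PLOD1 rose by 1.23 and the lysyl oxidase-like LOXL2 by 0.82. Of 11 measured collagen chains, 4 were called higher and none lower, with a median of 0.33: COL1A1 by 0.90, COL5A1 by 0.79, COL4A2 by 0.61 and COL5A2 by 0.48. The COL5A2 call was lost without HIF2A siRNA replicate 1 or 3 or any normoxic array.

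BNIP3 and BNIP3L, receptors that mark mitochondria for removal, went from 10.73, 10.26 and 9.95 to 12.10, 12.08 and 12.66 and from 9.30, 9.14 and 9.25 to 11.06, 11.05 and 11.30. BNIP3 varied more between replicates than BNIP3L, yet no arrays of the 2 groups overlapped in either gene. They rose by 1.97 (SE 0.28) and 1.91 (SE 0.15), and DDIT4, an inhibitor of mTORC1, by 1.85 (SE 0.13). With FAM162A these were the 4 called rises among 8 measured genes of this family and of autophagy, whose median was 1.14; none was called lower.

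Of 13 measured histone and DNA demethylases, enzymes that use oxygen as a substrate, 7 were called higher and none lower, with a median of 0.48. TET1, which oxidises methylcytosine, went from 5.88, 5.75 and 5.77 to 7.77, 7.17 and 7.997. Every hypoxic array lay more than 1 unit above every normoxic one, with a rise of 1.85 (SE 0.27). The histone demethylases KDM3A, KDM4C and KDM2A rose by 1.26, 1.22 and 0.68. Of 12 measured repressors of the BHLHE40 and MXI1 type and clock genes, 4 were called higher and 1 lower, with a median of 0.11. The repressors BHLHE41, MXI1 and BHLHE40 rose by 1.32, 1.21 and 1.003, and the clock gene PER2, named after its values were seen, by 0.43. The nuclear receptor NR1D2 fell by 0.88 (adjusted p = 0.0191), a call lost without HIF2A siRNA replicate 2 or normoxia replicate 1 or 3.

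Genes known in other cells for a preference for one of the alpha subunits were described side by side. These lists share members with those above, such as ALDOC, HK2, PDK1 and P4HA1 for HIF1A and VEGFA and LOXL2 for HIF2A. Of 14 measured genes with a known HIF1A preference, 11 were called higher and none lower, with a median of 1.18. Of 16 measured with a known HIF2A preference, 4 were called higher and none lower, with a median of 0.02. These 4 were VEGFA, FLT1, LOXL2 and MMP14. FLT1, a VEGF receptor, went from 8.02, 7.83 and 7.81 to 8.81, 8.49 and 8.88, a rise of 0.84 (SE 0.20). MMP14, a membrane metalloprotease, went from 8.97, 8.95 and 9.03 to 9.52, 9.44 and 9.37, a rise of 0.46 (SE 0.10). Neither overlapped between groups, but the FLT1 call was lost without HIF2A siRNA replicate 1 or 3 or any normoxic array, and the MMP14 call without HIF2A siRNA replicate 1 or 2 or any normoxic array. The called count of the HIF2A list was 2 without HIF2A siRNA replicate 1 and 2 without normoxia replicate 1, 2 or 3. The 12 other members differed from normoxia by between -0.31 and 0.29. The same HIF2A list had a median difference of 0.09 in hypoxia with control siRNA against normoxia, which shares the normoxic arrays. MMP14 stood at 9.11, 9.17 and 9.02 in hypoxia with control siRNA, a difference of 0.12 from normoxia. All its HIF2A siRNA arrays lay above these values, an uncalled difference of 0.34 between the hypoxic groups. VEGFA, LOXL2 and FLT1 differed between the same hypoxic groups by -0.07, -0.15 and 0.05, also uncalled.

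Genes that respond to amino acid shortage through ATF4 rose, 12 of 21 being called higher and none lower, with a median of 0.59. VLDLR, a lipoprotein receptor also known as a HIF target, had 8.25, 8.06 and 8.14 in normoxia and 10.51, 10.33 and 10.49 in hypoxia, a rise of 2.29 (SE 0.16). PSAT1, an enzyme of serine synthesis, had 9.49, 9.34 and 9.41 and 11.01, 10.72 and 11.06, a rise of 1.52 (SE 0.19). CBS, which makes cystathionine, rose by 1.38 and CHAC1, which degrades glutathione, by 1.31. Genes of the endoplasmic reticulum moved less, 2 of 15 being called higher and 2 lower, with a median of 0.07. ERO1A, the oxidase that forms disulphide bonds, went from 9.52, 9.40 and 9.47 to 10.89, 10.66 and 10.98, a rise of 1.38 (SE 0.21), and it kept its call without any 1 array. The transcription factor XBP1 differed by 0.54 and lost its call without any 1 of the 6 arrays. The chaperone partners SDF2L1 and DNAJB9 differed by -0.54 and -0.46; SDF2L1 was lost without HIF2A siRNA replicate 2 or 3 or any normoxic array, and also under the replicate block, cyclic loess and quantile normalization, and DNAJB9 was lost without replicate 1 or 2 of HIF2A siRNA or replicate 1 or 3 of normoxia.

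**Figure D3:**
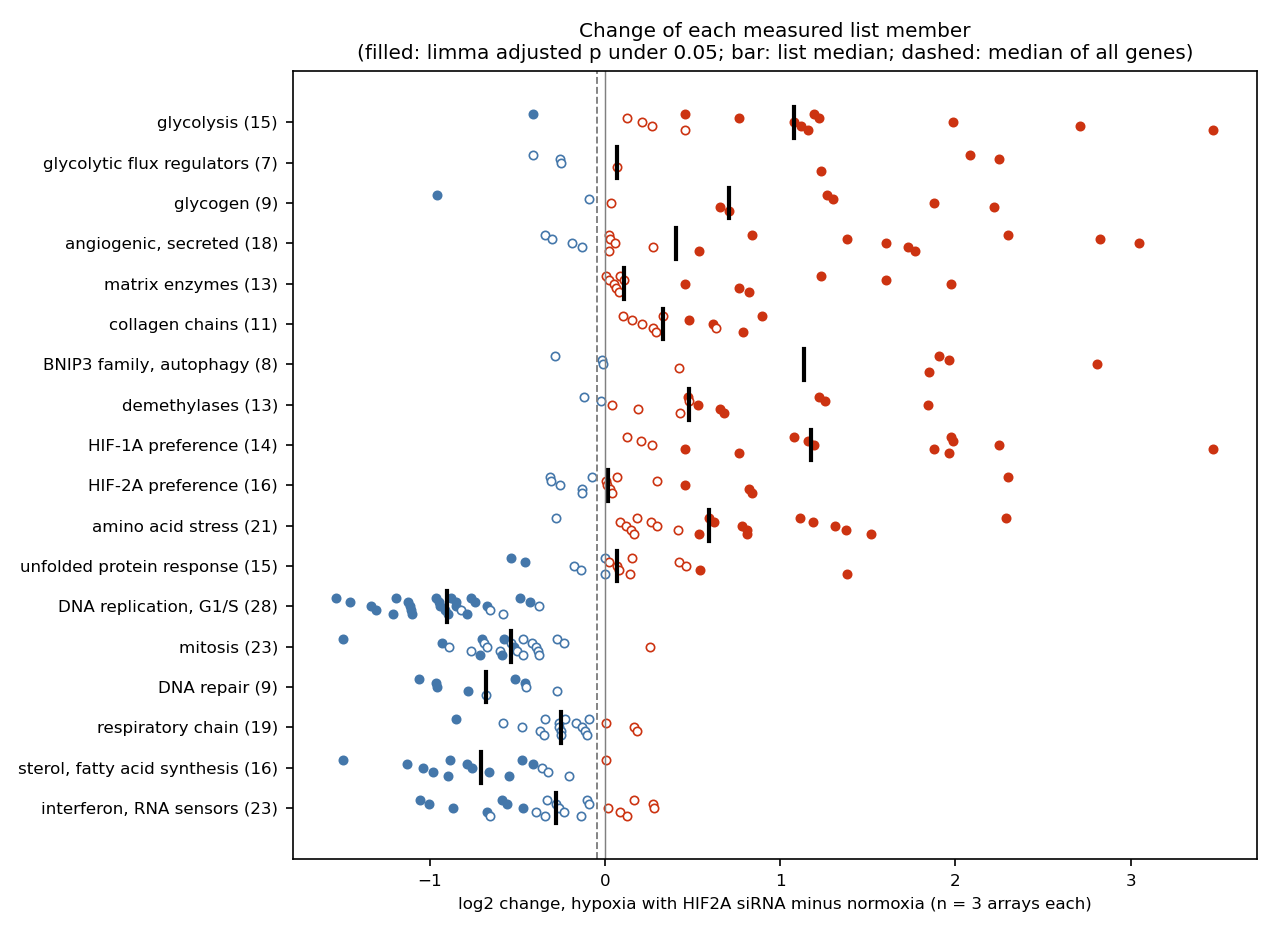
Log2 change of each measured member of 18 gene lists in hypoxia with HIF2A siRNA against normoxia (3 arrays each), filled where called, with the list median as a black bar and the number measured in brackets. Glycolytic, glycogen and HIF1A preference genes lie mostly to the right of the dashed median of all genes (-0.05), and DNA replication and sterol synthesis genes to its left. Some genes stand in several lists.

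Falls were led by genes of varied kinds. MRGPRX4, a Mas-related receptor, had 6.85, 6.65 and 6.31 in normoxia and 4.44, 4.06 and 4.69 in hypoxia with HIF2A siRNA. This was the largest fall, with a change of -2.20 on the log2 scale (SE 0.20, 4.6-fold, adjusted p = 1.0e-04). All 3 MRGPRX4 values with HIF2A siRNA lay below the lowest lower quartile of any array, 4.73, so the fall ended among dim values. TAF9B, a relative of a subunit of the basal transcription factor TFIID, had 9.26, 9.15 and 9.51 and 7.38, 7.40 and 7.45, and fell by 1.90 (SE 0.14). LONRF2, a RING finger protein, had 8.66, 8.48 and 8.58 and 7.14, 6.65 and 7.13, and fell by 1.601 (SE 0.20). THEM4, a mitochondrial thioesterase, had 9.07, 8.76 and 8.73 and 7.19, 7.14 and 7.49, and fell by 1.58 (SE 0.15). In each of these 4 genes the groups lay well apart, and their calls held without any 1 array.

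CDC25A, the phosphatase that releases cells into DNA replication, went from 8.37, 8.18 and 8.36 to 6.85, 6.63 and 6.84, and HMGCS1, an early enzyme of cholesterol synthesis, from 9.02, 8.69 and 8.70 to 7.19, 7.16 and 7.56. The changes were -1.53 (SE 0.16) and -1.499 (SE 0.19), with calls that held without any 1 array. The remaining 4 of the 10 largest falls were less stable. H2BC3, a histone H2B gene, had 8.65, 8.59 and 8.49 in normoxia and 6.68, 5.98 and 7.57 in hypoxia, with a wide spread in hypoxia, and its change of -1.84 (adjusted p = 0.0298) was called in the leave-one-out fit without HIF2A siRNA replicate 3 and in no other. SPC25, a kinetochore subunit, had 8.74, 8.15 and 8.30 and 6.90, 6.46 and 7.35, fell by 1.496 (adjusted p = 0.0273) and kept its call in that same fit alone. H2AC12, a histone H2A gene, fell by 1.48, a call lost without normoxia replicate 3. The antisense transcript ZNF295-AS1 fell by 1.51, a call lost without HIF2A siRNA replicate 1 or normoxia replicate 1 or 2. Its values with HIF2A siRNA, 3.52, 4.21 and 4.40, also lay below the lowest lower quartile of any array. Histone genes are near-identical copies, so a probe set may read several of them.

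Genes of DNA replication had the largest share of called falls among the lists examined. Of 28 measured genes of replication licensing, the replisome and entry into S phase, 24 were called lower and none higher, with a median of -0.90. After CDC25A, GINS1, a subunit of the replicative helicase, went from 9.90, 9.81 and 9.77 to 8.44, 8.16 and 8.51, a change of -1.46 (SE 0.17). CLSPN, a mediator of the replication checkpoint, went from 7.97, 7.77 and 7.73 to 6.56, 6.13 and 6.77, a change of -1.34 (SE 0.21). Neither overlapped between groups. CCNE2, a cyclin of the same transition, fell by 1.31 (adjusted p = 0.04) and lost the call without any 1 array and under the replicate block. The 4 members that did not pass also lay below normoxia, by -0.83 to -0.38. Without normoxia replicate 1 the count was 15 of 28, and without the other 5 arrays in turn it lay between 17 and 20.

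Mitotic genes gave 7 called falls of 23 measured and no called rise, with a median of -0.54. After SPC25, CDC25C, which activates the mitotic kinase, had 8.42, 8.26 and 8.18 in normoxia and 7.39, 7.13 and 7.55 in hypoxia and fell by 0.93 (SE 0.22). CCNA2, a cyclin, and SPC24, the partner of SPC25, fell by 0.71 and 0.70. These counts rested on all arrays: without HIF2A siRNA replicate 1, 2 or 3 they were 1, 1 and 4, and without normoxia replicate 1, 2 or 3 they were 0, 2 and 0. DNA repair genes gave 6 called falls of 9, with a median of -0.68, led by the nuclease EXO1 (-1.06), the recombination helper RAD54L (-0.97), the helicase BLM (-0.96) and XRCC2 (-0.78). RAD54L kept its call without any 1 array and BLM lost it without each in turn, while the count for the list was 3, 1 and 4 without HIF2A siRNA replicates 1, 2 and 3 and 1, 3 and 2 without normoxia replicates 1, 2 and 3. Ribosome biogenesis genes gave 3 called falls of 10, with a median of -0.40: RRS1 (-0.94), WDR12 (-0.81) and RRP9 (-0.71), each called without any 1 array.

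Mitochondrial genes gave 3 calls over both lists examined, all lower. The called falls were 5.26% of the respiratory chain list and 18.2% of the tricarboxylic acid cycle list, beside 6.79% of all genes. Of 19 measured subunits of the respiratory chain and ATP synthase, COX7B, a subunit of cytochrome oxidase, was called lower, at -0.85 (SE 0.18), and lost the call without normoxia replicate 3; the median was -0.25. Of 11 measured genes of pyruvate oxidation and the tricarboxylic acid cycle, SUCLG1 and IDH3B were called lower, at -0.70 and -0.33, and neither call held without any 1 of the 6 arrays; the median was -0.32. The IDH3B call was also lost under the replicate block and after quantile and cyclic loess normalization. With centred arrays, and with only the 6 arrays compared, 4 of the 11 were called lower, and with only the 6 arrays 3 of the 19 respiratory chain genes were. At an unadjusted p under 0.05, limma gave 6 of the 11 and 5 of the 19 lower, beside 17.4% of all genes.

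Genes of cholesterol and fatty acid synthesis were mostly lower. Of 16 measured genes, 12 were called lower and none higher, with a median of -0.71. After HMGCS1, SQLE, squalene epoxidase, went from 10.64, 10.45 and 10.44 to 9.51, 9.32 and 9.59, with no overlap and a change of -1.04 (SE 0.17). MSMO1, which removes methyl groups from sterols, went from 10.28, 9.95 and 10.07 to 9.03, 8.54 and 9.34, a change of -1.13 (adjusted p = 0.0409). ELOVL6, a fatty acid elongase, fell by 0.98 (adjusted p = 0.0337). The last 2 calls were lost without HIF2A siRNA replicate 1 or 2 or any normoxic array, and MSMO1 also under the replicate block. The count was 7 without HIF2A siRNA replicate 2, normoxia replicate 1 or normoxia replicate 3, 8 without normoxia replicate 2, and 9 and 11 without HIF2A siRNA replicates 1 and 3.

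Of 9 measured genes of lipid storage and uptake, HILPDA rose, and ACSL1, which activates fatty acids, and LPIN1, a phosphatidate phosphatase, were called lower at -0.75 and -0.68. ACSL1 lost its call without HIF2A siRNA replicate 1 or 2 or any normoxic array, and LPIN1 without HIF2A siRNA replicate 2 or normoxia replicate 1 or 3. Of 10 measured iron genes, CP, the copper oxidase ceruloplasmin, went from 4.95, 4.76 and 4.69 to 7.03, 6.54 and 7.15, a rise of 2.10 (SE 0.19) that held without any 1 array. HMOX1, which degrades heme, went from 7.38, 7.35 and 7.47 to 8.03, 7.68 and 7.79, a rise of 0.43 (adjusted p = 0.0288) lost without HIF2A siRNA replicate 1 or 3 or any normoxic array. STEAP3, a ferrireductase, was lower at -0.51, a call lost without HIF2A siRNA replicate 2 or 3 or normoxia replicate 1 or 3.

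Interferon response genes and RNA sensors gave 7 called falls of 23 measured and no called rise, with a median of -0.28. TLR3, a receptor for double-stranded RNA, went from 7.02, 6.65 and 6.79 to 5.79, 5.54 and 5.96, a change of -1.06 (SE 0.18). IFIT3, an interferon-induced protein, went from 9.05, 8.89 and 8.83 to 7.96, 7.84 and 7.95, a change of -1.003 (SE 0.13). Both calls held without any 1 array. IFIT2 and RIGI fell by 0.87 and 0.67 and lost their calls without any 1 array, and RIGI also under the replicate block. IFIT2 stood at 7.93, 7.75 and 7.80 in hypoxia with control siRNA, above each of its HIF2A siRNA values of 7.15, 7.04 and 7.28, an uncalled difference of -0.68 (95% interval -1.19 to -0.16). Without any 1 of the 6 arrays the count for the list was 3.

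Among 17 measured cytokines, chemokines and NF-kB factors, 3 were called higher and 3 lower, with a median of 0.06. PTGS2, the inducible cyclooxygenase, went from 7.48, 7.30 and 7.26 to 9.18, 8.89 and 9.27, a rise of 1.77 (SE 0.16). The cytokine IL1A went from 5.06, 4.93 and 4.71 to 6.33, 5.80 and 6.39, a rise of 1.28 (SE 0.19). The chemokine CCL2 went from 10.70, 10.71 and 10.64 to 9.69, 9.18 and 9.56, a change of -1.21 (SE 0.19). All 3 were free of overlap, as were 36.7% of all genes. The cytokine LIF fell by 0.94, a call lost without HIF2A siRNA replicate 2 or normoxia replicate 1 or 3. The 2 other calls, IL1B at 0.61 and NFKBIA at -0.59, were named after their values were seen, and the called falls of the list numbered 1 without HIF2A siRNA replicate 2, normoxia replicate 1 or normoxia replicate 3.

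Of 12 measured p53 targets, ZMAT3 alone was called, at -0.87, or 8.33% of the list beside 6.79% of all genes called lower. The list median was -0.33, against -0.05 over all genes. At an unadjusted p under 0.05, limma gave 5 of the 12 lower, beside 17.4% of all genes. Called falls of the list numbered 3 with centred arrays, 4 with only the 6 arrays compared and 1 after quantile normalization. Of 17 mesenchymal regulators and adhesion genes, 3 were called higher: fibronectin FN1 at 0.61, the integrin ITGA5 at 0.59 and the adhesion molecule L1CAM at 0.45. FN1 kept its call without any 1 array and L1CAM lost it without each in turn, while the count was 1 without HIF2A siRNA replicate 1 or without normoxia replicate 1, 2 or 3. Of 10 neural and glioma stem genes, the Notch target HES1 and the intermediate filament NES were called lower, at -0.65 and -0.40. The NES call was lost without HIF2A siRNA replicate 3 and without normoxia replicate 1 or 3, leaving 1, and also after quantile and cyclic loess normalization, under which the median of this list changed sign.

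The marker lists of other cells did not move as groups. Of 8 astrocyte markers none was called, and the one with the largest difference was GJA1 at 0.59 (limma adjusted p = 0.0808). AQP4, SLC1A2 and SLC1A3 lay below the lower quartile of every array in every group. By the mean of the normoxia and HIF2A siRNA arrays, 3 of the 8 lay below it, and the highest of the list stood at 12.14. None of 5 neuron, 7 oligodendrocyte, 8 microglia and 8 endothelial markers was called, the largest differences being those of SYP (-0.28), MAG (-0.33), CX3CR1 (-0.53) and ESAM (0.13). At an unadjusted p under 0.05, limma gave 5.87% of all genes higher and 17.4% lower. Of the astrocyte markers 1 was higher and 1 lower at that p, of the microglia markers 1 and 1, of the oligodendrocyte markers 0 and 3, and of the neuron and endothelial markers none. The markers PTPRC, CD163 and AIF1 of microglia and PECAM1, TEK and EMCN of endothelium also lay below the lower quartile of every array. By the mean of the normoxia and HIF2A siRNA arrays, 4 of 8 microglia and 4 of 8 endothelial markers did. The highest of these 2 lists stood at 8.424 and 7.005. Of 7 epithelial markers 1 was called higher, MUC1 at 0.78. None of 8 housekeeping genes and none of 12 genes of the small RNA machinery that siRNA uses was called; the largest differences were PPIA at -0.29 and AGO4 at 0.58, and at an unadjusted p under 0.05 limma gave 0 of the housekeeping genes and, of the small RNA genes, 2 higher and 2 lower.

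To ask which of these changes depended on HIF2A siRNA, the 3 hypoxic arrays with HIF2A siRNA were set against the 3 with control siRNA. EPAS1 was the single gene called, at a difference of -2.59, and 0 genes were called higher by limma. At an unadjusted p under 0.05 there were 255 higher and 247 lower genes, or 3.53% of those tested. The 3 values of one group lay entirely outside those of the other for 1332 genes, or 9.36%. The 95% interval of the difference extended a median of 0.30 log2 units to either side of its estimate, and for 98.48% of genes it lay within 1 log2 unit of 0 on both sides. That was so for 398 of the 405 called rises and 954 of the 967 called falls. These intervals are for single genes and do not show what the adjusted test could detect. The largest positive difference of all genes, 1.25, was itself not called. With 3 arrays per group, differences of that size or smaller could go uncalled.

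None of the largest rises of the response differed with a call between these groups. BEND5 had 10.10, 9.63 and 9.74 in hypoxia with control siRNA, a difference of 0.09 (95% interval -0.38 to 0.56). ALDOC had 10.63, 10.65 and 10.53, a difference of 0.02 (95% interval -0.31 to 0.36). VEGFA had 10.17, 10.07 and 10.25, a difference of -0.07 (95% interval -0.35 to 0.21). In these 3 the HIF2A siRNA arrays lay among or beside the control arrays. ANGPTL4 had 9.35, 9.32 and 9.13, all above the HIF2A siRNA arrays, a difference of -0.49 (95% interval -0.85 to -0.14) that was not called (adjusted p = 1). NDRG1 and STC1 differed by -0.25 (95% interval -0.48 to -0.01) and -0.24 (95% interval -0.55 to 0.08), also uncalled. For lists, the median difference was -0.03 over the HIF1A preference genes, 0.00 over the HIF2A preference genes, -0.05 over glycolysis, 0.05 over replication and 0.07 over sterol synthesis, against -0.01 over all genes.

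Among genes called against normoxia, the 6 beside EPAS1 with the most negative and the 6 with the most positive differences from control siRNA in hypoxia were picked after their values were seen, and none of these 12 was called. B3GALT2, a galactosyltransferase, had 7.96, 7.51 and 7.99 with control siRNA and 8.84, 8.56 and 9.10 with HIF2A siRNA, a difference of 1.01 (95% interval 0.60 to 1.42, adjusted p = 0.514). Its HIF2A siRNA arrays were the highest of the 4 groups. TBC1D13, a protein with a Rab GTPase-activating domain, had 8.24, 8.07 and 8.06 and 7.51, 7.16 and 7.38, a difference of -0.77 (95% interval -1.07 to -0.48). SPP1, the secreted phosphoprotein osteopontin, had 10.26, 10.11 and 10.43 and 9.55, 9.51 and 9.65, a difference of -0.70 (95% interval -1.003 to -0.39). In both the HIF2A siRNA arrays lay below all control arrays in hypoxia. So did the HIF1A siRNA arrays, at 7.95, 7.96 and 7.54 for TBC1D13 and 10.06, 9.68 and 9.52 for SPP1. CEMIP2, ABR, LSM1 and IFIT2 differed by -0.76, -0.75, -0.69 and -0.68. ABI3BP, PLAC8, SNAP91, ADAMTS9 and LRRC7 differed by 0.75, 0.74, 0.66, 0.66 and 0.65, and SNAP91 lay below the lower quartile of every array in every group. Against HIF1A siRNA in hypoxia, B3GALT2, PLAC8, ADAMTS9 and LRRC7 were called higher, by 2.38, 0.68, 0.69 and 1.27. The others of these 12 were not called there, with SPP1, LSM1, IFIT2 and SNAP91 differing by -0.19, -0.16, 0.22 and -0.02. HMOX1, outside these 12, had 7.29, 7.21 and 7.29 with control siRNA, all below the HIF2A siRNA arrays, a difference of 0.57 (95% interval 0.33 to 0.80, adjusted p = 0.514). After quantile or cyclic loess normalization TBC1D13, ABR and EPAS1 were called lower and ERAP1, an aminopeptidase with a difference of 0.90 on the deposited values, was called higher. With arrays centred on their medians, TBC1D13, ABR and EPAS1 were called.

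**Figure D4:**
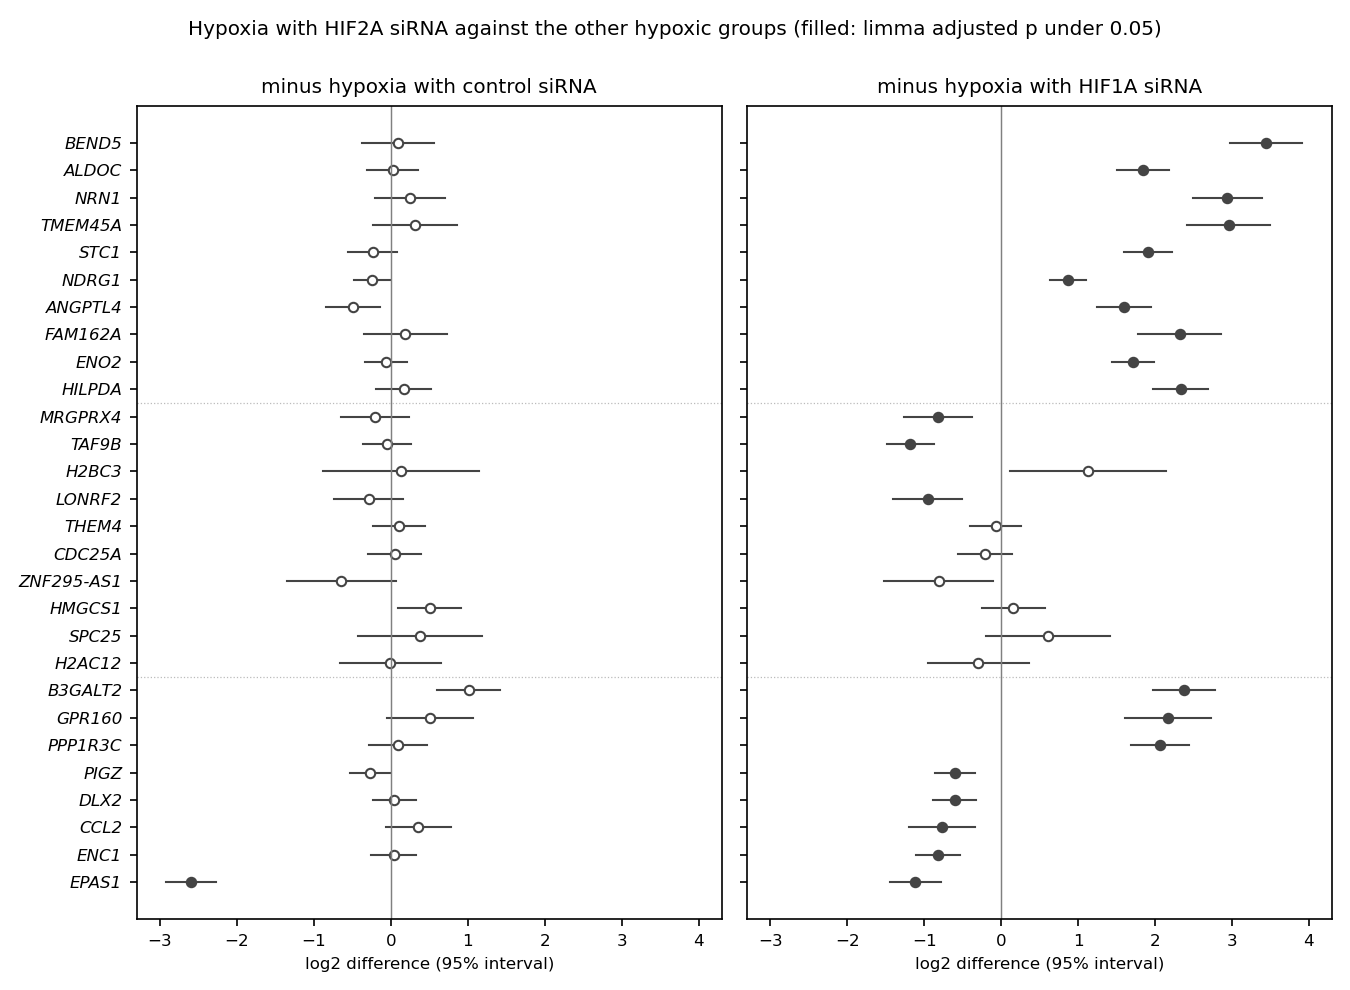
Log2 difference of hypoxia with HIF2A siRNA from hypoxia with control siRNA (left) and from hypoxia with HIF1A siRNA (right) with 95% intervals, 3 arrays per group, filled where the limma adjusted p is under 0.05. On the left EPAS1 is the 1 filled point, at -2.59; on the right the 10 largest rises are all higher, from 0.87 for NDRG1 to 3.45 for BEND5.

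Set against hypoxia with HIF1A siRNA, the HIF2A siRNA arrays had 1214 genes called higher (8.53%) and 128 called lower (0.899%), so rises made up 90.46% of calls. That share rested on the scale: it was 55.11% after quantile normalization (981 and 799), 65.78% after cyclic loess (1019 and 530) and 62.41% with centred arrays (1086 and 654), while the median of all genes moved by -0.14 with quantile normalization and with centring. The called rises numbered 254 and 295 without HIF2A siRNA replicates 1 and 3, and 2338 and 383 without HIF1A siRNA replicates 2 and 3. The called falls numbered 14, 243 and 11 without HIF2A siRNA replicates 1, 2 and 3, and 219 and 61 without HIF1A siRNA replicates 2 and 3. HIF1A siRNA replicate 3 had the lowest median of the 12 arrays, and its part in these counts beyond leaving it out was not tested.

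All 10 of the largest rises were higher with HIF2A siRNA than with HIF1A siRNA. They had been picked for high values in the same HIF2A siRNA arrays, which tilts this comparison towards higher values. Over all genes, 8.53% were called higher in this contrast. BEND5 had 6.64, 6.40 and 6.35 with HIF1A siRNA, a difference of 3.45 (SE 0.21, adjusted p = 6.6e-05). TMEM45A had 8.31, 8.48 and 7.44, a difference of 2.96 (SE 0.25), and NRN1 had 7.06, 6.85 and 6.14, a difference of 2.94 (SE 0.21). None of these arrays reached the HIF2A siRNA arrays. HILPDA, FAM162A and PPP1R3C differed by 2.33, 2.32 and 2.06. NDRG1 differed least of the 10, at 0.87 (SE 0.11), with 11.30, 11.39 and 11.07 in the HIF1A siRNA arrays. B3GALT2 and GPR160, an orphan receptor, differed by 2.38 and 2.17. B3GALT2 stood at 6.74, 6.34 and 6.28 with HIF1A siRNA, below its normoxic values of 7.51, 7.29 and 7.62. Its order from low to high was HIF1A siRNA, normoxia, control siRNA and HIF2A siRNA, and the normoxic and control siRNA arrays in hypoxia overlapped.

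Genes called lower with HIF2A siRNA than with HIF1A siRNA, and lower than in normoxia, were led by TAF9B. Its HIF1A siRNA values were 8.67, 8.67 and 8.42, between those of normoxia and of HIF2A siRNA, and the difference was -1.18 (SE 0.14, adjusted p = 0.00106). EPAS1 differed by -1.11 (SE 0.15). LONRF2, MRGPRX4, ENC1, an actin-binding protein, and CCL2 differed by -0.95, -0.82, -0.82 and -0.77, and DLX2, a homeobox factor, and PIGZ, a mannosyltransferase, by -0.60 and -0.60. The LONRF2 call was lost without HIF2A siRNA replicate 1 or 3, that of MRGPRX4 without HIF2A siRNA replicate 1 or 2 or HIF1A siRNA replicate 1 or 3, that of CCL2 without any 1 HIF2A siRNA array and under the replicate block, that of DLX2 without HIF2A siRNA replicate 3 and that of PIGZ without HIF2A siRNA replicate 1 or 3. With only the 6 arrays compared in the fit, all 6 of these calls, ENC1 among them, were lost, and that of MRGPRX4 was also lost after cyclic loess normalization, while EPAS1 and TAF9B kept theirs. The call of PIGZ against normoxia, at -0.44, was lost without any 1 array, under the replicate block, with arrays centred on their medians and with only the 6 arrays compared.

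By list, 8 of 15 glycolytic genes, 7 of 9 glycogen genes, 8 of 13 demethylases and 9 of 14 HIF1A preference genes were called higher with HIF2A siRNA than with HIF1A siRNA, and none lower. The median differences were 0.58, 0.90, 0.72 and 0.62, against 0.06 over all genes. The glycolytic and HIF1A preference lists share members, ALDOC and HK2 among them, so these counts are not separate. In this contrast 8.53% of all genes were called higher and 0.899% lower by limma. At an unadjusted p under 0.05, 24.3% of all genes were higher and 7.92% lower. Replication genes had 0 of 28 called in either direction by limma, 1 higher and 0 lower at that unadjusted p, and a median of 0.05. Mitotic genes had 0 of 23 called by limma, 11 higher and 0 lower at that unadjusted p, and a median of 0.52. Amino acid stress genes gave 3 of 21 called higher (14.3%), with a median of 0.15. CBS and CHAC1, called against normoxia, differed from HIF1A siRNA by 0.22 and 0.07 without a call. Sterol synthesis genes gave 2 of 16 called higher (12.5%) and 1 lower (6.25%), with a median of 0.20. HMGCS1, at 7.31, 7.29 and 6.83 with HIF1A siRNA, overlapped with its HIF2A siRNA values and differed by 0.16 (95% interval -0.25 to 0.58). CDC25A, at 7.31, 6.91 and 6.73, differed by -0.21 (95% interval -0.56 to 0.14), and THEM4, at 7.30, 7.33 and 7.40, by -0.07 (95% interval -0.40 to 0.26).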

How the data were processed

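Total RNA of LN229 cells was measured on Affymetrix whole transcript arrays, 3 per group in 4 groups. The authors deposited 1 log2 value per probe set and array; base 2 was inferred from the values, and no source used here gives the background correction or normalization. Partek and the build hg18 are named per the submitters' processing notes. Of 22011 probe sets, 14432 have 1 gene symbol in the platform annotation, 2408 several and 5171 none here. Gene IDs of 14404 were found in a RefSeq gene list, and 0 symbols changed. For 197 genes with more than 1 probe set, that with the highest mean over the 12 arrays was used, leaving 14232 genes.

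One mean per group was fitted over all 12 arrays with limma 3.58.1 (lmFit and eBayes; R 4.3.3 with data.table, version 1.17.8), with Benjamini-Hochberg adjustment over genes and calls made at an adjusted p under 0.05. Errors are limma's SE; 95% intervals are for single differences. The number of arrays limits the precision. The script was tested on simulated data. Figures used matplotlib 3.10.9, and tables pandas 2.3.3 under python 3.11.15.

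Named genes were EPAS1, HIF1A and the measured HIF system; the 10 largest called rises and falls without overlap; up to 4 called members per list, or the largest uncalled; and up to 8 genes per direction also called against each other hypoxic group. Genes and lists were chosen with earlier results of these data known. Alternatives were other normalizations, 6 arrays only, a variance trend, no dim genes, mean probe sets, a replicate block, each array left out and an adjusted p under 0.01. Replicate numbers were not taken as pairing the samples.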

Additional observations from a re-analysis of the deposited data

Results flagged for a closer look

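The genes below were singled out because the HIF2A siRNA arrays differed from another hypoxic group in a direct limma contrast (adjusted p under 0.05, 3 arrays per group). EPAS1 differed from control siRNA in hypoxia by -2.59 and from HIF1A siRNA by -1.11, all 3 arrays lying below both groups. Against HIF1A siRNA, 1214 genes were called higher and 128 lower, and at most 8 per direction are named here. They had the largest differences among those also called against normoxia and free of overlap. The 8 named as higher were BEND5 by 3.45, TMEM45A by 2.96, NRN1 by 2.94, B3GALT2 by 2.38, HILPDA by 2.33, FAM162A by 2.32, GPR160 by 2.17 and PPP1R3C by 2.06. Beside EPAS1, the 7 named as lower were TAF9B by -1.18, LONRF2 by -0.95, MRGPRX4 by -0.82, ENC1 by -0.82, CCL2 by -0.77, DLX2 by -0.60 and PIGZ by -0.60. With only the 6 arrays compared in the fit, the calls of LONRF2, MRGPRX4, ENC1, CCL2, DLX2 and PIGZ were lost, and that of CCL2 was also lost under the replicate block. Of these genes, EPAS1 alone was also called against control siRNA.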

How the results depend on the processing

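Counts of genes higher and lower than in normoxia were 405 and 967. The rises became 768 after quantile normalization and 855 after cyclic loess, and the falls 1607 with only the 6 arrays compared. At an adjusted p under 0.01 there were 214 and 303. Leaving out 1 array gave 241 to 310 rises and 347 to 645 falls. Against control siRNA in hypoxia, 0 genes were higher and 1 lower (limma); quantile normalization and cyclic loess each gave 1 and 3, and centring on array medians gave 3 lower. Leaving out 1 array kept these counts at 0 and 1. Against HIF1A siRNA there were 1214 and 128, which became 123 and 4 with only the 6 arrays and 265 and 7 at an adjusted p under 0.01. The lower calls were 799 after quantile normalization, 530 after cyclic loess and 654 after centring, and leaving out 1 array gave 254 to 2338 higher and 11 to 243 lower. Fewer arrays in a fit leave fewer degrees of freedom, and with fewer arrays the counts moved in both directions. The causes of these moves were not tested. The change of EPAS1 against normoxia lay between -1.45 and -1.34 with 1 array left out and was called in every setting tried.

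With a replicate block the counts were 385 and 914 against normoxia, 0 and 1 against control siRNA, and 1016 and 85 against HIF1A siRNA, and EPAS1 changed by -1.40. Deviations of same-numbered HIF2A siRNA and normoxia arrays correlated at -0.03, 0.18 and -0.13. Over all pairs of groups, same-numbered arrays correlated at between -0.29 and 0.42 and other-numbered arrays at between -0.49 and 0.49. By this measure the replicate numbers gave no sign of pairing. Reversals were 3, all uncalled: HIF3A at 0.056 without HIF2A siRNA replicate 3 (-0.11 without replicate 2, the other end of its leave-one-out range), and ARNT at 0.023 after quantile normalization and 0.036 after cyclic loess. Of 106 named genes called against normoxia, 71 were called in every leave-one-out fit and 35 lost the call in 1 or more, while 7 lost a call under another setting.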
